A study of Mus musculus with 8 samples.

Results

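Aminoacyl-tRNA synthetases are the enzymes that join each amino acid to its tRNA. The genes described here encode 20 cytosolic and 16 mitochondrial synthetases of the mouse and were chosen by gene symbol, the names ending in 2 being mitochondrial. All 36 were found among the 54532 genes of the count table, where *Mars1* is listed under its older symbol *Mars*, and all 36 were among the 13560 genes that passed a filter on low counts. The lowest count of any member in any library was 141, for *Wars2* in *EpCAM-* library 4.

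RNA was sequenced from LSK cells, the lineage-negative, c-Kit-positive and Sca-1-positive bone marrow cells that hold the hematopoietic stem and progenitor cells (HSPCs), of *Zeb1-/-* mice. The cells had been sorted by the surface protein EpCAM into a *Zeb1-/-* *EpCAM+* and a *Zeb1-/-* *EpCAM-* fraction, and each fraction gave 4 libraries numbered 1 to 4. The comparison asks how the transcripts of HSPCs that carry EpCAM differ from those of HSPCs of the same genotype that do not. Mice of both fractions were C57BL/6 animals of 8 to 12 weeks with floxed *Zeb1* alleles (fl/fl) and the Mx1-Cre transgene, all were given pIpC, a double-stranded RNA that turns the transgene on, and cells were taken 14 days after the last dose from 4 mice per genotype. The deletion and the pIpC are therefore shared by both fractions, and control mice were not analysed here. Mx1-Cre responds to interferon and is not specific to hematopoietic stem cells, so it also deletes in other marrow cells, those of the niche included. Whether libraries with the same number came from 1 mouse is not given in the sources used here, and the p-values measure the spread between these libraries.

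Gene counts summed to 15929923, 14114491, 15085883 and 14349327 in *EpCAM-* libraries 1 to 4 and to 15225714, 16743224, 17073546 and 15459106 in *EpCAM+* libraries 1 to 4, and all values per library are given in this order. The ranges of the totals overlapped (p = 0.114 in an exact two-sided permutation test). Genes with at least 1 count numbered 18746, 18704, 18442 and 18286 in the *EpCAM-* libraries and 19992, 20040, 20310 and 20209 in the *EpCAM+* libraries, without overlap (p = 0.0286 in the same exact test, the lowest value possible with 4 against 4 libraries). Levels are counts per 1000000 (CPM) of a library size scaled by the trimmed mean of M-values (TMM), and a gene was called when its edgeR quasi-likelihood test gave a Benjamini-Hochberg adjusted p under 0.05 over all 13560 tested genes. Log2 fold changes are of *EpCAM+* over *EpCAM-* libraries, with their standard error (SE).

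*Epcam*, the sort marker, was at 8.99, 3.77, 1.43 and 1.25 CPM in the *EpCAM-* and 234, 161, 171 and 183 CPM in the *EpCAM+* libraries (log2 fold change 5.56 ± 0.47, edgeR adjusted p = 0.000121), which follows from the sort and is not a finding. *Zeb1* was at 13.4, 14.0, 10.7 and 9.49 CPM in the *EpCAM-* and 23.7, 14.8, 20.8 and 18.8 CPM in the *EpCAM+* libraries (log2 fold change 0.72 ± 0.17, edgeR adjusted p = 0.00798). The *Zeb1* counts cover the whole gene and not the deleted exons alone, so they do not check the deletion. Of 9 genes that define or subdivide LSK cells, all 9 passed the filter, 7 were higher in *EpCAM+* cells and 0 lower. *Kit* was at 245, 155, 221 and 212 CPM in the *EpCAM-* and 308, 244, 328 and 259 CPM in the *EpCAM+* libraries. *Ly6a*, which encodes Sca-1, was at 71.7, 61.3, 16.4 and 15.7 CPM in the *EpCAM-* and 351, 195, 140.4 and 116 CPM in the *EpCAM+* libraries, so both sorting markers were detected in all 8 libraries and *Ly6a* was lowest in *EpCAM-* libraries 3 and 4. The call of *Kit* (log2 fold change 0.45, edgeR adjusted p = 0.0276) was lost without *EpCAM-* library 2, 3 or 4 or *EpCAM+* library 1 or 3, with edgeR adjusted p between 0.0517 and 0.0832.

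A synthetase recognizes an amino acid and its tRNAs, and uses ATP to make the charged tRNA that the ribosome then reads. Cytosolic and mitochondrial translation use mostly separate sets of these enzymes, all encoded in the nucleus, while *Kars* and *Gars* each give products for both compartments. Hematopoietic stem cells are known for a low rate of protein synthesis, which rises as they become progenitors.

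Synthetase transcripts were lower in *Zeb1-/-* *EpCAM+* than in *Zeb1-/-* *EpCAM-* LSK cells for most members. Of the 36 genes, 27 fell, 0 rose and 9 were not called, where 20.8% of all tested genes were called lower and 21.8% higher. With DESeq2, 28 fell and 0 rose, and 0 rose in edgeR at an unadjusted p under 0.05. The 4 *EpCAM+* values lay below all 4 *EpCAM-* values for 26 of the 36 members, against 20% of all tested genes, and 29 members were lower in *EpCAM+* cells in all 4 same-numbered pairs, against 30.6% of all tested genes. The median log2 fold change was -0.42 over the members and 0.02 over all tested genes. Summed over the 36 genes, the members held 0.413, 0.395, 0.456 and 0.472% of the counts in the *EpCAM-* libraries and 0.320, 0.340, 0.347 and 0.329% in the *EpCAM+* libraries. In these bulk libraries, fewer cells of a type that holds much of a transcript and less of it per cell cannot be told apart.

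**Figure D1:**
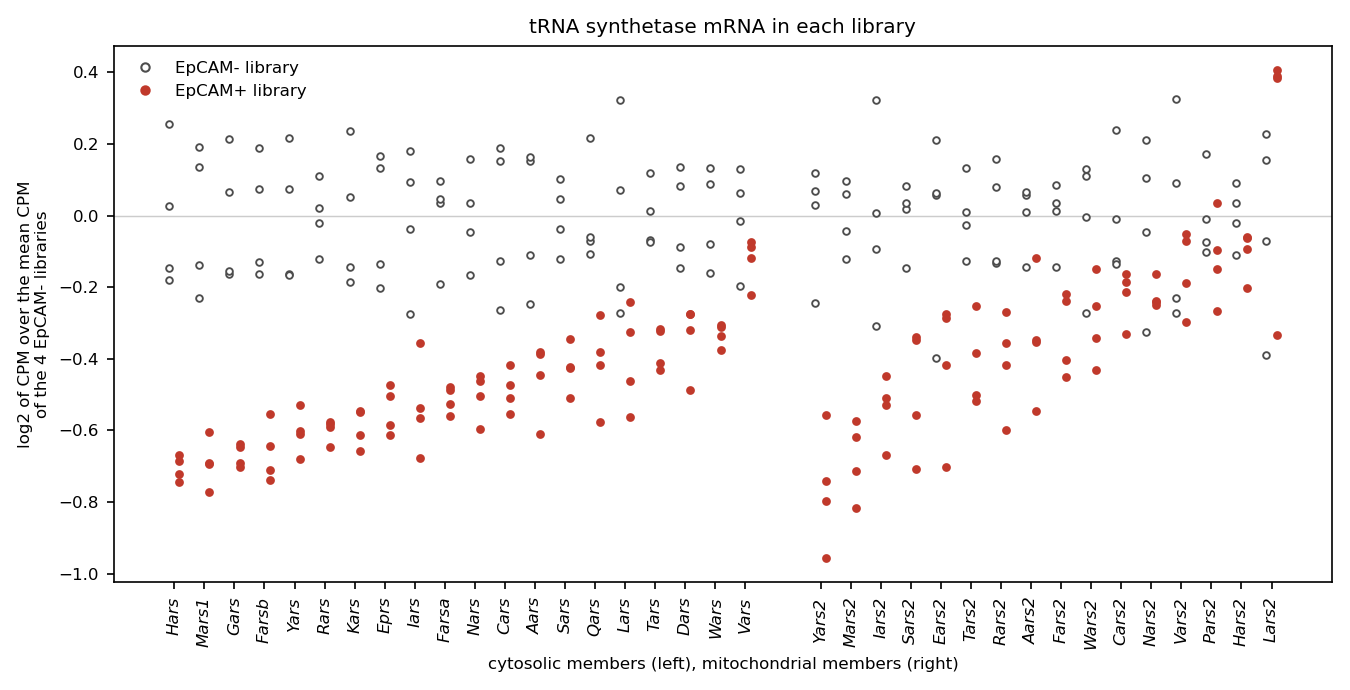
Level of each of the 36 synthetase genes in each of the 8 libraries, as log2 CPM minus the gene's mean over the 4 *EpCAM-* libraries, with cytosolic and mitochondrial genes apart. For 26 genes all 4 *EpCAM+* libraries lie below all 4 *EpCAM-* libraries, and *Lars2* is highest in *EpCAM+* libraries 2, 3 and 4.

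More cytosolic than mitochondrial members passed the test. Among cytosolic synthetases 19 of 20 fell, 18 of them without overlap, with a median log2 fold change of -0.51 and a range from -0.71 to -0.12. Among mitochondrial synthetases 8 of 16 fell, and 8 of 16 were separated without overlap, with a median of -0.33 and a range from -0.76 to 0.24. Whether the compartments differ was tested only gene against partner gene, as given further on. Within the cytosolic set, the 8 enzymes of the multi-synthetase complex, an assembly held together by scaffold proteins, all fell (median -0.54), as did 11 of the 12 outside it (median -0.49). By structural class, 8 of 9 cytosolic class I and 10 of 10 class II genes fell, with *Eprs*, which holds an enzyme of each class, left out.

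The choice of scaling moved these values. Upper quartile scaling and plain library totals each moved the median of all tested genes from 0.02 to 0.11, and gave 3642 higher and 2083 lower genes or 3476 higher and 2066 lower genes, in place of 2961 higher and 2818 lower. With either scaling 25 members fell and 0 rose, the cytosolic median was -0.42 and the mitochondrial median -0.24.

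The cytosolic member with the largest decrease was *Hars*, which charges histidine tRNA. *Hars* was at 202, 207, 233 and 274 CPM in the *EpCAM-* libraries and 142, 139, 137 and 144 CPM in the *EpCAM+* libraries. The *EpCAM+* values lay within a narrow band and below every *EpCAM-* value, and *EpCAM-* library 4 was the highest. Its log2 fold change was -0.71 ± 0.10 (edgeR adjusted p = 0.000508), or 38.7% lower. *Gars*, for glycine, whose product serves both compartments, was at 204, 205, 239.6 and 265 CPM in the *EpCAM-* and 147, 142, 141 and 146 CPM in the *EpCAM+* libraries. It had the same order, with a narrow *EpCAM+* group under all *EpCAM-* values and *EpCAM-* library 4 on top (log2 fold change -0.67 ± 0.09, edgeR adjusted p = 0.000495). *Yars*, for tyrosine, measured 90.1, 89.9, 106 and 117 CPM in the *EpCAM-* and 66.1, 62.9, 69.9 and 66.5 CPM in the *EpCAM+* libraries. Its groups did not overlap, and *EpCAM-* libraries 3 and 4 stood above 1 and 2 (log2 fold change -0.60 ± 0.09, edgeR adjusted p = 0.000932).

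*Mars1*, for methionine, is the complex member with the largest decrease. Its level was 134, 126, 162 and 169 CPM in the *EpCAM-* and 91.5, 86.5, 97.2 and 91.4 CPM in the *EpCAM+* libraries. All *EpCAM+* libraries were below all *EpCAM-* libraries, among which 1 and 2 were the lower pair (log2 fold change -0.69 ± 0.10, edgeR adjusted p = 0.000653, 38.0% lower). The remaining complex members had log2 fold changes of -0.60 (*Rars*), -0.59 (*Kars*), -0.54 (*Eprs*, which charges both glutamate and proline tRNAs), -0.53 (*Iars*), -0.41 (*Qars*), -0.39 (*Lars*) and -0.34 (*Dars*). *Lars*, for leucine, was the complex member with overlapping groups, at 119, 113, 143 and 170.5 CPM in the *EpCAM-* and 92.2, 98.9, 109 and 115 CPM in the *EpCAM+* libraries. *EpCAM+* library 4 exceeded *EpCAM-* library 2, and the edgeR adjusted p was 0.0326. The *Lars* call was lost with upper quartile scaling, with library totals, and without *EpCAM-* library 3 or 4 or *EpCAM+* library 1, 2 or 3, where the edgeR adjusted p lay between 0.0559 and 0.0774 and the log2 fold change between -0.42 and -0.27.

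Phenylalanine tRNA is charged in the cytosol by an enzyme of paired subunits. Its beta subunit *Farsb* was at 226, 231, 266 and 288 CPM in the *EpCAM-* and 152, 155, 172 and 162 CPM in the *EpCAM+* libraries. All *EpCAM+* values were under all *EpCAM-* values, with *EpCAM-* library 4 again the highest (log2 fold change -0.66 ± 0.09, edgeR adjusted p = 0.000521). The alpha subunit *Farsa* fell by 0.51 on the log2 scale (edgeR adjusted p = 0.000708). *Nars*, for asparagine, had with *Hars* the highest levels per kilobase of the table's length column among cytosolic members, 117 and 115 CPM per kilobase in *EpCAM-* cells. This order rests on that column, which is shorter than the summed exons for these genes, and by FPKM *Farsb* and *Dars*, and per kilobase of the longest coding transcript *Dars* and *Farsa*, were the highest. *Nars* measured 299, 275, 317 and 345 CPM in the *EpCAM-* and 218, 205, 226 and 225 CPM in the *EpCAM+* libraries. These groups did not overlap, and *EpCAM-* library 2 was the closest to the *EpCAM+* values (log2 fold change -0.50 ± 0.08, edgeR adjusted p = 0.00108). Of the other genes outside the complex, *Cars*, *Aars*, *Sars*, *Tars* and *Wars* fell by between 0.33 (*Wars*) and 0.49 (*Cars*) on the log2 scale, each without overlap. *Vars*, for valine, was the cytosolic member that was not called (log2 fold change -0.12, edgeR adjusted p = 0.237), at 246, 217, 259.6 and 272 CPM in the *EpCAM-* and 236, 234, 229 and 213 CPM in the *EpCAM+* libraries. *EpCAM-* library 2 lay below 3 of the *EpCAM+* libraries, so the *Vars* groups overlapped.

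Cytosolic members varied together within the *EpCAM-* fraction. *EpCAM-* library 4 was the highest *EpCAM-* library for 18 of the 20, and *EpCAM-* library 3 for the other 2, where *EpCAM-* library 4 was the highest for 28.7% of all tested genes. The lowest was *EpCAM-* library 1 for 9 and *EpCAM-* library 2 for 11. Across the *EpCAM+* libraries the median coefficient of variation of the cytosolic members was 4.51%, and across the *EpCAM-* libraries 12.2%, beside 11.0% and 14.1% for all tested genes. All tested genes were not matched to the members for level, and counting error weighs more on genes with low counts. The lowest count of a cytosolic member was 608. Summed over the 20 genes, the cytosolic level was 3391, 3376, 3897 and 4155 CPM in the *EpCAM-* and 2611, 2577, 2694 and 2654 CPM in the *EpCAM+* libraries. Without *EpCAM-* library 4, the cytosolic median log2 fold change was -0.46 and 18 members fell.

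Among mitochondrial synthetases, *Yars2*, the tyrosine enzyme, had the largest decrease of all 36 genes. It was at 64.3, 77.8, 82.8 and 79.9 CPM in the *EpCAM-* and 51.8, 39.3, 45.6 and 43.8 CPM in the *EpCAM+* libraries. The groups were apart, with *EpCAM-* library 1 the lowest *EpCAM-* value and *EpCAM+* library 1 the highest *EpCAM+* value (log2 fold change -0.76 ± 0.11, edgeR adjusted p = 0.000572, 40.8% lower). *Mars2*, the methionine enzyme, was at 26.9, 30.5, 31.3 and 28.4 CPM in the *EpCAM-* and 17.8, 19.1, 16.6 and 19.6 CPM in the *EpCAM+* libraries. No *EpCAM+* value reached a *EpCAM-* value (log2 fold change -0.68 ± 0.09, edgeR adjusted p = 0.000556). *Iars2*, for isoleucine, measured 66.1, 76.7, 82.2 and 102 CPM in the *EpCAM-* and 51.5, 59.9, 56.7 and 57.5 CPM in the *EpCAM+* libraries. *EpCAM-* library 4 was the highest and *EpCAM-* library 1 the lowest of its fraction, still above the *EpCAM+* values (log2 fold change -0.54 ± 0.12, edgeR adjusted p = 0.00580).

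*Sars2*, for serine, was at 34.7, 38.9, 39.3 and 40.7 CPM in the *EpCAM-* and 26.1, 30.2, 23.5 and 30.3 CPM in the *EpCAM+* libraries. *EpCAM+* libraries 1 and 3 were the lowest, and the groups did not overlap (log2 fold change -0.48 ± 0.10, edgeR adjusted p = 0.00459). *Tars2*, for threonine, measured 99.1, 109, 106 and 119 CPM in the *EpCAM-* and 83.0, 90.7, 75.6 and 76.5 CPM in the *EpCAM+* libraries. Its groups were apart as well, with *EpCAM+* library 2 the nearest to the *EpCAM-* values (log2 fold change -0.41 ± 0.08, edgeR adjusted p = 0.00340). *Rars2*, for arginine, had with *Yars2* the highest mitochondrial levels per kilobase of the length column, 32.1 and 24.2 CPM per kilobase in *EpCAM-* cells, while by FPKM *Rars2* and *Tars2* were the highest. Its values were 81.1, 81.5, 94.0 and 99.3 CPM in the *EpCAM-* and 58.8, 69.6, 66.6 and 73.9 CPM in the *EpCAM+* libraries. *EpCAM-* libraries 3 and 4 exceeded 1 and 2, and all 4 exceeded the *EpCAM+* libraries (log2 fold change -0.40 ± 0.10, edgeR adjusted p = 0.00703). *Fars2*, for phenylalanine, also fell without overlap (-0.32, edgeR adjusted p = 0.0124). *Aars2*, for alanine, was called lower with overlapping groups (-0.33, edgeR adjusted p = 0.0313). The *Aars2* call was lost with upper quartile scaling, library totals and a filter of at least 1 count in any library, and without *EpCAM-* library 1, 3 or 4 or *EpCAM+* library 1, 3 or 4, with edgeR adjusted p between 0.0506 and 0.107.

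The mitochondrial members that were not called had log2 fold changes of -0.41 (*Ears2*), -0.29 (*Wars2*), -0.22 (*Cars2*), -0.22 (*Nars2*), -0.15 (*Vars2*), -0.11 (*Pars2*), -0.10 (*Hars2*) and 0.24 (*Lars2*). *Cars2*, the cysteine enzyme, had its 4 *EpCAM+* values below its 4 *EpCAM-* values all the same. *Ears2*, for glutamate, had an edgeR adjusted p of 0.0502, which was 0.00977 with the replicate number as a block, 0.0308 with DESeq2, 0.0460 with DESeq2's size factors, 0.0462 among protein-coding genes and 0.0121 without *EpCAM-* library 2. Its adjusted p lay between 0.00977 (edgeR with the block) and 0.122 over all alternatives. *Nars2* passed the threshold without *EpCAM-* library 1 (edgeR adjusted p = 0.0219) and *Wars2* without *EpCAM-* library 4 (edgeR adjusted p = 0.0425), both as lower.

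*Lars2*, the mitochondrial leucine enzyme, was the member with a positive log2 fold change, and its library values are given because of that, after they were seen. It was at 99.2, 64.7, 80.6 and 94.3 CPM in the *EpCAM-* and 67.1, 110.5, 112 and 111 CPM in the *EpCAM+* libraries. *EpCAM+* libraries 2, 3 and 4 lay close together above all *EpCAM-* libraries, while *EpCAM+* library 1 lay below all *EpCAM-* libraries but number 2. The gene was not called (edgeR adjusted p = 0.289), but without *EpCAM+* library 1 its log2 fold change was 0.39 and it was called higher (edgeR adjusted p = 0.0446), the 1 member called higher under any alternative. None of its 75-base stretches occurred in a transcript of another gene. Among ribosomal RNA repeat transcripts, *Gm42418* had 0 counts in all libraries, and *Gm26917* was at 205, 146, 227 and 225 CPM in the *EpCAM-* and 171, 193, 378 and 196 CPM in the *EpCAM+* libraries, highest in *EpCAM+* library 3.

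To set each cytosolic gene against its mitochondrial partner without any scaling between libraries, the log2 ratio of their counts was taken within each library for 17 pairs. This ratio was lower in *EpCAM+* cells for 13 pairs and higher for 4. For 3 pairs the 4 *EpCAM+* ratios were all below the 4 *EpCAM-* ratios. *Hars* to *Hars2* had log2 ratios of 2.19, 2.27, 2.33 and 2.76 in the *EpCAM-* and 1.91, 1.73, 1.72 and 1.82 in the *EpCAM+* libraries, a difference of -0.59. *Nars* to *Nars2* differed by -0.29 and *Farsa* to *Fars2* by -0.18, each of the 3 with an exact two-sided permutation p of 0.0286. After Benjamini-Hochberg adjustment over the 17 exact permutation tests 0 pairs were under 0.05 and 3 were before it, the smallest adjusted p being 0.162. Without *EpCAM-* library 2 the count of separated pairs was 6, and without *EpCAM+* library 1 it was 5. A pair separated in all libraries stays separated when 1 is left out, so this count could not fall. As the numbers pair the libraries, the ratios were also compared within same-numbered libraries, an alternative added after the values were seen. With this replicate block 6 pairs were lower in *EpCAM+* in all 4 numbers, those 3 and *Eprs* to *Pars2*, *Eprs* to *Ears2* and *Farsb* to *Fars2*, and 0 were higher in all 4. *Eprs* to *Ears2* differed by -0.12, -0.11, -0.12 and -0.17 in numbers 1 to 4. The exact two-sided sign-flip test of 4 differences cannot go under p = 0.125, so 0 pairs could be called by it.

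*Lars* to *Lars2* had the largest difference, -0.61, with log2 ratios of 0.26, 0.80, 0.83 and 0.85 in the *EpCAM-* and 0.46, -0.16, -0.05 and 0.05 in the *EpCAM+* libraries. *EpCAM-* library 1 lay within the *EpCAM+* range, and the exact two-sided permutation p was 0.0571. *Eprs* to *Pars2* followed *Hars* to *Hars2* in size with -0.42 (exact permutation p = 0.0857). The smallest differences were those of *Mars1* to *Mars2* (-0.0015), *Iars* to *Iars2* (-0.0024) and *Vars* to *Vars2* (0.01). Both partners fell for methionine and for isoleucine, and neither was called for valine.

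**Figure D2:**
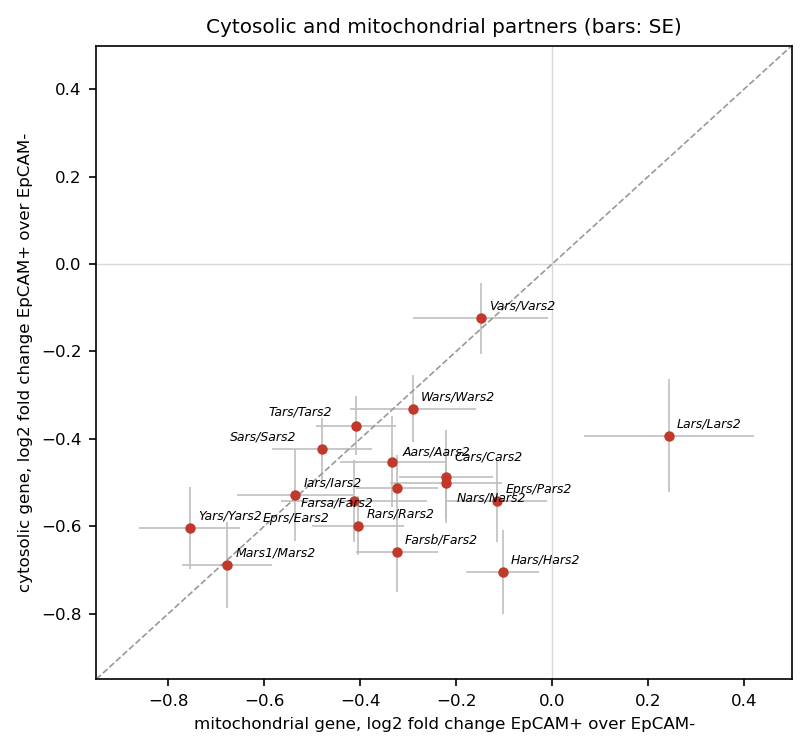
Log2 fold change of each cytosolic synthetase (vertical axis) against that of its mitochondrial partner (horizontal axis) for 17 pairs, with bars of 1 SE and a dashed line where both are equal. *Mars1* and *Mars2* lie near the line at -0.69 and -0.68, while *Hars* at -0.71 and *Lars* at -0.39 lie well below it.

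Per unit of length, cytosolic members were the more abundant. On the scale of CPM per kilobase of the length column, the median level of cytosolic members over that of mitochondrial members was 5.53 ± 0.752 (SD, n = 4) in *EpCAM-* and 4.42 ± 0.411 (SD, n = 4) in *EpCAM+* libraries. On the authors' FPKM scale the same ratio of levels was 3.87 ± 0.221 (SD, n = 4) in *EpCAM-* and 3.84 ± 0.344 (SD, n = 4) in *EpCAM+* libraries. Per kilobase of the longest coding transcript it was 4.65 ± 0.361 (SD, n = 4) and 4.73 ± 0.355 (SD, n = 4). The direction between the fractions thus depended on the length used, and their ranges overlapped on the first scale (4.65 to 6.29 against 3.82 to 4.74). The length column equalled the summed exons of the gene for 33 of 36 members and was shorter for *Hars*, *Lars* and *Nars*, and the FPKM implied that length for 4.

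Some members share exon bases with a neighbour, and as the library kits do not mark strand, reads from the shared bases cannot be told apart. The *Iars2* exons (chr1, build GRCm38) share 2034 bases, or 22.9% of their length, with *Rab3gap2* on the opposite strand. *Aars* shares 1326 bases with *Exosc6* on the same strand, for which 0 counts are listed. *Hars* and *Hars2*, which lie head to head, share 195 bases, *Fars2* shares 501 with *Nrn1* (0 counts), *Cars2* 422 with *Naxd* and *Mars1* 68 with *Ddit3*. *Farsb* shares 248 bases with *Sgpp2*, which had 8 counts over all libraries against 25202 for *Farsb*.

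Promoters are shown as a description, and their part in the change of these genes was not tested. RefSeq promoters of 250 bases before to 50 bases after the start (build GRCm38.p6) were found for 27 of the 36 members, and *Cars*, *Hars*, *Hars2*, *Lars*, *Nars*, *Rars*, *Vars*, *Wars* and *Pars2* had no entry. The letters TGATGNAA, a form of the element that ATF4 and C/EBP proteins are known to bind, were searched on both strands. They occurred in promoters of 5 of 13 cytosolic members (*Aars*, *Gars*, *Iars*, *Tars* and *Yars*) and 0 of 14 mitochondrial members. Among all promoters, 3.97% of 32851 had a match, and counted by gene, as the members are, 4.51% of 27025 genes. CACGTG, the E-box that Myc proteins are known to bind, was in those of *Aars*, *Farsb*, *Iars* and *Tars* among the 13 cytosolic members. It was in that of *Ears2* among the 14 mitochondrial members, and in 7.15% of all promoters or 8.09% of all genes. CACCTG, the E-box form known for Zeb1, was found on either strand in 0 of 13 cytosolic and 4 of 14 mitochondrial members (*Fars2*, *Lars2*, *Tars2* and *Wars2*). Its share was 20.2% of all promoters and 22.6% of all genes. The palindromic NRF1 motif, also searched on both strands, was in 0 of the 27 members, and in 0.971% of all promoters or 1.07% of all genes. A match describes letters and is not a binding site.

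The 5 promoters with TGATGNAA are printed 5′ to 3′ on the strand of the gene, with the matches to TGATGNAA or its reverse complement in capitals. No CACGTG match overlapped them. They lie at chr8:111033592-111033891 (plus strand) for *Aars*, chr6:55037751-55038050 (plus strand) for *Gars*, chr13:49681880-49682179 (plus strand) for *Iars*, chr15:11399609-11399908 (minus strand) for *Tars* and chr4:129189653-129189952 (plus strand) for *Yars*. *Aars* has 2 matches and the others 1 each, and the matches of *Iars* and *Yars* and the second match of *Aars* begin 7, 3 and 9 bases after the start.
Aars: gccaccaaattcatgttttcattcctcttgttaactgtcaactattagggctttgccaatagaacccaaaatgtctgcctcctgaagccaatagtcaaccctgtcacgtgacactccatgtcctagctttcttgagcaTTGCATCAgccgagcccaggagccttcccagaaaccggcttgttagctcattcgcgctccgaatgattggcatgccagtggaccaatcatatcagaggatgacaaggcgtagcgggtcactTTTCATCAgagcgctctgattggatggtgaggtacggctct
Gars: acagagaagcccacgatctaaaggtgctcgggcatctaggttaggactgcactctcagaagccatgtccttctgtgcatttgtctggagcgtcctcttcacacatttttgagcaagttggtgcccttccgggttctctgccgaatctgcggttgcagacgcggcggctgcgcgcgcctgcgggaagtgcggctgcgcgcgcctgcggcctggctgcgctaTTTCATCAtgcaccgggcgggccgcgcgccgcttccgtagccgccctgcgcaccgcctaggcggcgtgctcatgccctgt
Iars: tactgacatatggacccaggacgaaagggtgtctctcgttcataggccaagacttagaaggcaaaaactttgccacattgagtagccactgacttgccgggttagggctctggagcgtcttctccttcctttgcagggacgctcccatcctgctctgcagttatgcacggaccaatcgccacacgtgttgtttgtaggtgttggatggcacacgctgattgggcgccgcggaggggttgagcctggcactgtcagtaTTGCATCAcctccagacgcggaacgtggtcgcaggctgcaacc
Tars: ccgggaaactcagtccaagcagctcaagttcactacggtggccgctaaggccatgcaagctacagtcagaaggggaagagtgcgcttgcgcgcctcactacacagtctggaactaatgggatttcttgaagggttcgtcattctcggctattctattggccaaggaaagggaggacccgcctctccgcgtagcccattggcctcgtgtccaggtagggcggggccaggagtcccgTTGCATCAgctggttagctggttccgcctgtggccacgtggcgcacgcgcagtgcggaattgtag
Yars: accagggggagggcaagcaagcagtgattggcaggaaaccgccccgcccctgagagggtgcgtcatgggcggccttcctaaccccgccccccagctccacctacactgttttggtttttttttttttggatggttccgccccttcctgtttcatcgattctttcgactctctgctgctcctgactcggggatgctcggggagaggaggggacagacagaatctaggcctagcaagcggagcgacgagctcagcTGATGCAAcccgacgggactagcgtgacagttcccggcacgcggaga

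The 5 genes with these promoters fell with log2 fold changes of -0.45 (*Aars*), -0.67 (*Gars*), -0.53 (*Iars*), -0.37 (*Tars*) and -0.60 (*Yars*), and the cytosolic members without a match and with a promoter entry, among them *Mars1* (-0.69) and *Farsb* (-0.66), fell as well.

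Genes that work beside the synthetases were examined as lists, to be read beside the 20.8% of all tested genes called lower and the 21.8% called higher. The scaffold of the multi-synthetase complex fell in 3 of 3 genes, *Eef1e1* (-0.67), *Aimp2* (-0.41) and *Aimp1* (-0.29), the last of which was not called with library totals. Of 10 translation elongation genes, for the delivery of charged tRNA to the ribosome and the steps around it, 8 fell and 0 rose (median -0.45), 5 with upper quartile scaling, with library totals or without *EpCAM+* library 3. Those that fell include the mitochondrial elongation factors *Tufm* (-0.61), *Gfm1* (-0.70) and *Tsfm* (-0.67) and the cytosolic *Eef1g* (-0.62). *Eef1a1*, the cytosolic factor that carries charged tRNA and the most abundant of the 10, named after its values were seen, was not called (-0.08, edgeR adjusted p = 0.507). Of 30 genes of tRNA maturation and export 19 fell and 1 rose (median -0.31), with *Trnt1*, which adds the CCA end, at -0.51, *Elac2* at -0.78, and the exporters *Xpo5* at -0.49 and *Xpot* at -0.50. Without *EpCAM-* library 3 or *EpCAM+* library 1, with library totals or with the replicate block, 2 of these genes rose, and 3 with upper quartile scaling. Of 56 tested tRNA modification genes 33 fell and 0 rose (median -0.30), and 21 fell with upper quartile scaling or library totals, 1 rising under either and under the replicate block. *Wdr4* (-0.64), *Ftsj1* (-0.79), *Dus1l* (-0.68) and *Pus1* (-0.69) had the smallest adjusted p.

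Among partners of mitochondrial charging 2 of 5 fell (median -0.21), among them *Gatc* (-0.27), a subunit of the amidotransferase that finishes glutamine tRNA, and 1 of 5 with upper quartile scaling or library totals. Proofreading and peptidyl-tRNA release fell in 3 of 8 genes and rose in 0 (median -0.20), among them *Ptrh2* (-0.28) and *Prorsd1* (-0.36). The lower count was 1 with upper quartile scaling, with library totals, and without *EpCAM+* library 1 or *EpCAM+* library 4, and 1 gene rose with these scalings, with the replicate block, and without *EpCAM-* library 1 or *EpCAM-* library 2. The *Prorsd1* call was also lost without *EpCAM-* library 2 or 4 or *EpCAM+* library 3.

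Uncharged tRNA is sensed by the kinase GCN2, which through eIF2alpha raises translation of ATF4, an activator of many synthetase genes, and Myc is another known activator of them. *Atf4* was at 176, 176, 198 and 188 CPM in the *EpCAM-* and 155, 126, 167 and 141 CPM in the *EpCAM+* libraries, without overlap (log2 fold change -0.32 ± 0.09, edgeR adjusted p = 0.0170). That call was lost without *EpCAM-* library 3 (edgeR adjusted p = 0.0510), with upper quartile scaling (0.0516) and with library totals (0.0591). *Myc* was at 477, 578, 659 and 615 CPM in the *EpCAM-* and 353, 452, 504 and 452 CPM in the *EpCAM+* libraries, where *EpCAM+* library 3 exceeded *EpCAM-* library 1 (log2 fold change -0.40 ± 0.13, edgeR adjusted p = 0.0265). Its call was lost with upper quartile scaling, with library totals, and without *EpCAM-* library 3, *EpCAM-* library 4 or *EpCAM+* library 1 (edgeR adjusted p between 0.0512 and 0.0777).

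The core of the stress response had 3 of 10 genes lower and 2 higher (median -0.28), among them *Eif2s1* (-0.54), *Eif2ak1* (-0.35) and *Impact* (0.47). Its higher count was 4 with upper quartile scaling or library totals and 1 without *EpCAM-* library 2, *EpCAM-* library 3, *EpCAM+* library 3 or *EpCAM+* library 4, and its lower count was 5 without *EpCAM-* library 2. Of 21 tested ATF4 targets outside the synthetases 10 fell and 4 rose (median -0.32), 2 rising under a filter of 10 counts in every library. Asparagine synthetase, *Asns*, was at 109, 122, 229 and 329.7 CPM in the *EpCAM-* and 34.3, 36.0, 50.6 and 42.7 CPM in the *EpCAM+* libraries, highest in *EpCAM-* libraries 3 and 4 (-2.27). *Shmt2* (-0.69) and *Eif4ebp1* (-0.63) fell, and *Nupr1* (1.95) rose. Of 25 tested genes of amino acid input to mTORC1 5 fell and 2 rose (median -0.09), no larger a share than among all tested genes in either direction, with *Seh1l* at -0.44, *Sec13* at -0.44, *Lamtor4* at -0.46 and *Castor1* at 1.18, and the number that rose was 5 when libraries were scaled by upper quartile or by totals, 4 with DESeq2, the replicate block or a filter of 10 counts in every library, and 1 without *EpCAM+* library 3. In the Myc network 3 of 11 fell and 4 rose (median 0.13), *Mxd3* (0.58), *Mxd1* (0.50), *Mycn* (1.41) and *Mycl*, and 1 fell with upper quartile scaling or library totals and without *EpCAM-* library 3 or *EpCAM-* library 4. Of 19 proliferation genes 14 fell and 0 rose (median -0.34), 9 with library totals, with *Rrm2* at -0.71, *Ccna2* at -0.57, *Aurka* at -0.51 and *Mcm5* at -0.42. Over these lists together 103 genes fell and 13 rose. With upper quartile scaling 71 fell and 23 rose, with library totals 67 fell and 22 rose, and with the replicate block 115 fell and 20 rose.

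Genes used as markers of other cell types also differed between the fractions, some lists mainly lower and others mainly higher in *EpCAM+* cells. Of 9 tested neutrophil genes 4 fell and 0 rose, and the list summed to 18563, 13661, 15368 and 11942 CPM in the *EpCAM-* and 1098, 1268, 1154 and 1853 CPM in the *EpCAM+* libraries, most of it *Mpo*. Of 8 tested erythroid genes 5 fell and 1 rose, with sums of 1905, 2184, 4877 and 6627 CPM and 72.8, 52.4, 95.6 and 239.7 CPM. *Car1* was the most abundant erythroid gene. The erythroid sums were highest in *EpCAM-* libraries 3 and 4, as were the cytosolic synthetase sums. Other lists had another order, the neutrophil sum being highest in *EpCAM-* library 1 and, within that fraction, lowest in *EpCAM-* library 4. Mast cell and basophil genes fell in 3 of 6, with sums of 403, 471, 695 and 518 CPM and 267, 286, 292 and 285 CPM. *Gata2*, the most abundant of them, was not called and did not fall (log2 fold change 0.28), and it was called higher with upper quartile scaling (edgeR adjusted p = 0.0348), library totals (0.0488) and the replicate block (0.0434). Conventional dendritic cell genes rose in 8 of 9, with sums of 632, 384, 339.7 and 344 CPM and 15056, 1408, 4228 and 15713 CPM, highest in *EpCAM+* libraries 1 and 4. *Cd74* was the most abundant of them in *EpCAM+* libraries and at 168 CPM or less in *EpCAM-* libraries. Plasma cell genes rose in 3 of 5, with sums of 257, 259, 245 and 171 CPM and 3978, 453, 674 and 389 CPM, where *Jchain* was the most abundant in *EpCAM+* libraries and at 0.273 CPM or less in *EpCAM-* libraries, and immunoglobulin genes held 5.62% of counts in *EpCAM+* library 1. Epithelial genes rose in 4 of 4, with sums of 105, 87.8, 79.2 and 81.7 CPM and 254, 219, 203 and 253 CPM, led by *Krt18*. The lineage antibodies of the study's HSPC stain were MAC1 and GR1 for myeloid, TER119 for erythroid, B220 for B and CD3e, CD4 and CD8a for T cells, whose carriers are excluded. Which of the sorted cells held these transcripts, and their part in the synthetase result, was not tested.

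In the further marker lists, monocyte and macrophage genes fell in 3 of 10 and rose in 1, which was *Lyz2*, the most abundant of them (0.68), with list sums of 1357, 648, 819.7 and 562 CPM in the *EpCAM-* and 957, 643, 702 and 874 CPM in the *EpCAM+* libraries. Plasmacytoid dendritic cell genes fell in 1 and rose in 2 of 5, with *Bst2* the most abundant and not called (107, 129, 113 and 96.1 CPM and 117, 104, 110.3 and 106 CPM). B cell genes rose in 2 of 4 (median 2.18), while *Cd79b*, the most abundant, was not called (53.7, 76.2, 51.1 and 44.2 CPM and 69.6, 72.9, 64.0 and 70.3 CPM; log2 fold change 0.30) but was called higher with the replicate block (edgeR adjusted p = 0.0370) and without *EpCAM-* library 2 (0.00417). T cell genes rose in 2 of 3, with *Lck* the most abundant and higher (24.9, 27.5, 19.0 and 16.3 CPM and 50.3, 53.9, 62.7 and 54.5 CPM). In the NK cell list *Nkg7* alone was tested and not called (883, 828, 791 and 684 CPM and 631, 794, 705 and 790.5 CPM), as was *Pecam1* in the stromal and endothelial list (45.4, 42.1, 38.5 and 35.4 CPM and 37.6, 34.1, 35.2 and 40.0 CPM). *Pax5*, *Krt5*, *Krt14*, *Klk1*, *Col1a1* and *Col3a1* had 0 counts in all 8 libraries, which allows up to 0.222 CPM in the shallowest library (3 counts, counting error alone).

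**Figure D3:**
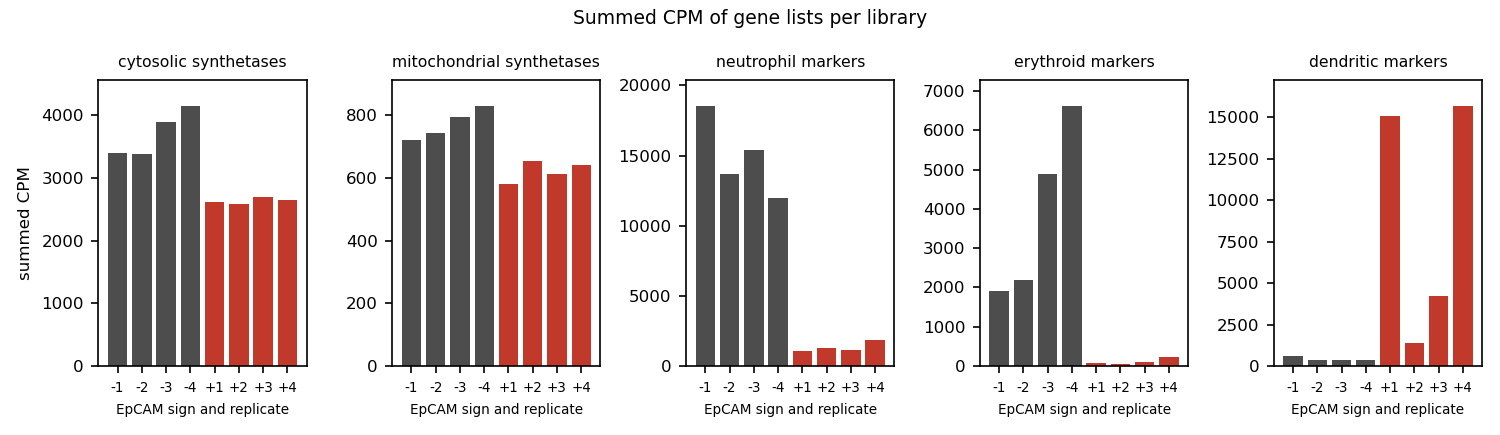
Summed CPM per library of the cytosolic synthetases, the mitochondrial synthetases and the neutrophil, erythroid and conventional dendritic cell marker lists, 1 bar for each of the 4 *EpCAM-* and 4 *EpCAM+* libraries. The cytosolic sums are 3376 to 4155 CPM in *EpCAM-* and 2577 to 2694 CPM in *EpCAM+* libraries. The erythroid sums are highest in *EpCAM-* libraries 3 and 4, and the neutrophil sum is highest in *EpCAM-* library 1.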

How the data were processed

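Total RNA of sorted LSK cells was amplified with SMART-Seq v4 and sequenced as 150-base pairs. Per the submitters' processing notes, STAR 2.6.1d, featureCounts 1.5.0-p3, DESeq2 1.20.0 and build GRCm38.p6 were used; strand and multi-mapping settings are not given in the sources used here. The deposited table holds raw counts per gene, which were tested. The authors also deposited FPKM, normalized for gene length and mapped reads, used here for levels alone. In 15 further columns the authors deposited log2 fold changes with their p-values and adjusted p-values, of 1 fraction against the other and of each same-numbered pair; none of them was used.

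Counts of all genes were filtered with filterByExpr, scaled by TMM and tested with edgeR 4.0.16 (glmQLFit, two-sided) in R 4.3.3, with limma 3.58.1 installed and DESeq2 1.42.0 as an alternative. The scaling was also done by upper quartile, by library totals or with size factors of DESeq2, genes were filtered in 2 other ways or to protein-coding genes, the replicate number was added as a block, and each library was left out in turn. The code was tested on simulated counts. Ratios of partner genes had 0.5 added to each count. Exon overlaps, transcript lengths and 75-base stretches came from GENCODE vM21, and promoters from RefSeq.

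Members and lists were chosen with earlier results of these data known. Values per library are given for the 5 called members of each compartment with the largest change, the 2 with the highest level per kilobase, and any called higher; members not called are named. Lists give up to 4 called genes with the smallest adjusted p, marker lists the most abundant gene and those at 0, and pairs the 3 largest and 3 smallest differences; 3 of the list genes so chosen, and 1 marker list, are not reported here. *Vars*, *Lars* and *Lars2* values, and the separated pairs, were added after their values were seen. Same-numbered libraries deviated together from their fraction means (correlations across genes of 0.356, 0.263, 0.205 and 0.266), so the numbers pair them. No 2 libraries of a fraction agreed within sampling noise (chi-square per degree of freedom 10.6 to 101).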

Additional observations from a re-analysis of the deposited data

Results flagged for a closer look

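In 8 of 146 groups of 4 libraries examined, 1 value stood far from the other 3 for their range, and for the synthetases themselves this was so in 3 of 72 groups. Chance gives about 1 in 20. *Qars* was at 92.6 CPM in *EpCAM-* library 4 and at 74.0 to 76.4 CPM in the other *EpCAM-* libraries. *Lars2* was at 67.1 CPM in *EpCAM+* library 1, below 110.5 to 112 CPM in the other *EpCAM+* libraries. *Nars2* was at 24.5 CPM in *EpCAM+* library 1, above 23.0 to 23.2 CPM in the others, a gap about the size of the counting error of its 374 counts, and stands out because the other 3 values lie close together.

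Summed plasma cell markers were at 171 CPM in *EpCAM-* library 4 (others 245 to 259 CPM) and at 3978 CPM in *EpCAM+* library 1 (others 389 to 674 CPM). Conventional dendritic cell markers summed to 632 CPM in *EpCAM-* library 1 (others 339.7 to 384 CPM). *Gm26917* was at 378 CPM in *EpCAM+* library 3 (others 171 to 196 CPM). Immunoglobulin genes held 5.62% of counts in *EpCAM+* library 1 and 0.423% to 0.705% in the other *EpCAM+* libraries.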

How the results depend on the processing

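Over 16 alternatives to the test of the 36 members there were 576 values, of which 552 kept direction and side of the threshold, 16 lost the call, 8 gained one and 0 changed direction. For 30 members every alternative gave the same call; the calls of *Lars* and *Aars2* were lost under some, and *Ears2*, *Lars2*, *Nars2* and *Wars2* gained one. Between 25 and 28 members fell under the alternatives. Without 1 library at a time, 0 to 1 members rose, and the cytosolic median log2 fold change ran from -0.56 to -0.46. In these fits 3 to 6 partner pairs were separated, a count that leaving out a library cannot lower. Upper quartile scaling gave medians of -0.42 (cytosolic) and -0.24 (mitochondrial), and library totals -0.42 and -0.24. Of the related lists, 67 genes fell with library totals, and 23 rose with upper quartile scaling, 22 with library totals and 20 with the replicate block. With the replicate block, the paired fit, 28 members fell, *Ears2* being added (edgeR adjusted p = 0.00977), and no other member call changed. The ratio of cytosolic to mitochondrial levels per kilobase was 3.87 in *EpCAM-* and 3.84 in *EpCAM+* libraries with FPKM, and 4.65 in *EpCAM-* libraries with the longest coding transcript, an alternative chosen after seeing the data. With 5 added to each count, 3 pairs were separated as before. With a library left out, only separation of the pairs was counted and no exact test was run. Within same-numbered libraries (replicate block), an alternative added after seeing the data, 6 pairs were lower in all 4 numbers.

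*Gm26917*, not called, had log2 fold changes from -0.11 (without *EpCAM+* library 3) to 0.34 with 1 library left out. *Bst2*, at -0.02 and not called, had 0.063 with upper quartile scaling, 0.061 with library totals, 0.0033 with at least 10 counts in every library, and -0.092 to 0.049 with 1 library left out. *Eef1a1*, at -0.08 and not called, had 0.0081 with upper quartile scaling and 0.0068 with library totals. The cause of these shifts was not tested. Calls of markers changed too: *Slamf1* was lost without *EpCAM-* library 1, 2 or 3 or *EpCAM+* library 1, 2 or 4, and *Cd34*, *Cd79b* and *Gata2* gained one with the replicate block, *Cd34* and *Cd79b* also without *EpCAM-* library 2, and *Gata2* also with upper quartile scaling and library totals.

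With 4 libraries a fraction, exact tests cannot go below p = 0.0286. The lowest member count was 141, for *Wars2*, and counting error weighs more on members with low counts than on the others. Its part in the spread between libraries was not tested. Each library is 1 sorted LSK fraction taken as a whole, and its mix of cell subsets was not analysed here. Gene counts do not separate overlapping genes, give no charged tRNA and no protein.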
